A study of Mus musculus with 8 samples.

Results

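The IL6, STAT3 and acute phase genes were the 10 genes Il6ra, Il6st, Stat3, Socs3, Saa1, Saa2, Lcn2, Orm2, Hp and Crp, taken by gene name from the 45706 genes of a liver count table. Each name matched 1 row, and all 10 were among the 14629 genes with enough counts to be tested. The samples were livers of 4 WT and 4 S155A mice, with 1 library per mouse. S155A mice carry PLIN5, a protein of the lipid droplet surface, in which the serine named by the label was replaced by alanine through CRISPR-Cas9 editing of the gene in the germ line, so the change is in every cell. The edited sequence was checked in a founder, and how many founders gave rise to the line is not given in the sources used here. Mice of both genotypes were C57BL/6J females, 4 months old, fed chow and fasted overnight before harvest, so no fed mouse enters any comparison. The study asked how loss of this phosphorylation site changes gene expression in the fasted liver.

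IL6 is a cytokine that binds its receptor IL6RA and the shared signalling chain gp130, the product of Il6st. The bound receptor activates JAK kinases, which phosphorylate STAT3. STAT3 then enters the nucleus and switches on target genes, among them Socs3, whose product blocks the receptor and its kinases. In hepatocytes this pathway, together with IL1 and NF-kB signals, drives the acute phase response, in which the liver secretes large amounts of proteins such as serum amyloid A, lipocalin 2, orosomucoid and haptoglobin.

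The labels carry animal numbers that fall into 2 ranges. Replicates 1 and 4 of WT and of S155A have numbers under 200 (low series), and replicates 2 and 3 have numbers over 800 (high series). What the numbers stand for is not given in the sources used here. Each series holds 2 WT and 2 S155A mice, and values are given for each series beside the pooled ones. Expression is given as CPM, which are counts scaled to a common library size with TMM factors. Total counts were between 39709785 and 54540864 per library. The labels name hepatocytes as the cell type, but the extraction was from liver. The summed level of 6 hepatocyte markers was 93539 to 110281 CPM in WT mice and 90833 to 131058 CPM in S155A mice, and that of 9 Kupffer cell markers was 258 to 511 CPM and 264 to 577 CPM. Plin5 itself was between 183 and 254 CPM in WT mice and between 192 and 457 CPM in S155A mice. Gene counts cannot show which codon a read carried. In whole tissue, fewer cells of a type and less RNA per cell cannot be told apart.

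Saa1 and Saa2 are neighbours on chromosome 7 and encode the acute serum amyloid A proteins, which bind to high-density lipoprotein in plasma. Saa1 (ENSMUSG00000074115) spans 46740497 to 46742980 on the reverse strand, and Saa2 (ENSMUSG00000057465) spans 46751790 to 46754313 on the forward strand, with all gene coordinates from GENCODE release M21 on build GRCm38. Their coding sequences are 366 bases each and were 95.1% identical, with 18 differing bases and a longest identical run of 73 bases. The stretch with the densest differences, coding bases 40 to 189, is shown because it bears on how well reads of the pair can be told apart. Capitals mark the 12 bases that differ, and the lines are from the GENCODE release M21 transcripts ENSMUST00000128088 and ENSMUST00000210769.
Saa1: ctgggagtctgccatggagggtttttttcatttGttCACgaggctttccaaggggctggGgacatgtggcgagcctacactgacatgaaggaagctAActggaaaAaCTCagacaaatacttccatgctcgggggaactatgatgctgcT
Saa2: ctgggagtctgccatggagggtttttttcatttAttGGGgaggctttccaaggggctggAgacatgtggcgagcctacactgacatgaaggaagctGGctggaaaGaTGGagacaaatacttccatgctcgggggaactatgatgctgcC

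A read between such differences fits both genes, and salmon, the program that made the counts, divides those reads by its model. The levels of Saa1 and Saa2 are therefore uncertain against each other, while their sum does not depend on how reads shared by the pair were divided. Orm2, which encodes an orosomucoid (alpha-1-acid glycoprotein), has near copies as well. Its coding sequence was 89.9% identical to that of Orm1 and 87.9% identical to that of Orm3.

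Promoters are shown for Saa1, Saa2 and Lcn2, whose levels moved together across the mice, and for Socs3, a known STAT3 target. The 250 bases before each start are from RefSeq on build GRCm38.p6, read in the direction of transcription. They lie at chr7:46742981-46743230 (Saa1, reverse strand), chr7:46751583-46751832 (Saa2, forward strand), chr2:32387740-32387989 (Lcn2, reverse strand) and chr11:117969367-117969616 (Socs3, reverse strand). Capitals mark matches to a C/EBP motif, TTGCNNAA, in the first 3 and to a STAT motif, TTCNNNGAA, in Socs3.
Saa1: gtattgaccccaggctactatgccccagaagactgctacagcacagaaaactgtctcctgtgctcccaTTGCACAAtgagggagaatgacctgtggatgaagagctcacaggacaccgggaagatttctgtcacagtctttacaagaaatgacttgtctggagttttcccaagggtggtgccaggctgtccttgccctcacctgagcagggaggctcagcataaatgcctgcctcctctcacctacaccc
Saa2: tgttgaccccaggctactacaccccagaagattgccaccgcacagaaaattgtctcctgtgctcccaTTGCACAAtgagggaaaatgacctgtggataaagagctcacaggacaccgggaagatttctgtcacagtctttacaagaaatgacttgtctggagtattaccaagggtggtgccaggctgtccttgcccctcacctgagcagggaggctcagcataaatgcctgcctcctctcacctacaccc
Lcn2: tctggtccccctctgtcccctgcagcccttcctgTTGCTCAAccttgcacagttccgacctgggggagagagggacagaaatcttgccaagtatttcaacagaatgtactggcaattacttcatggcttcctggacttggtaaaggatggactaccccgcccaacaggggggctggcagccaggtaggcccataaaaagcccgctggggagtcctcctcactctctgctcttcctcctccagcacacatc
Socs3: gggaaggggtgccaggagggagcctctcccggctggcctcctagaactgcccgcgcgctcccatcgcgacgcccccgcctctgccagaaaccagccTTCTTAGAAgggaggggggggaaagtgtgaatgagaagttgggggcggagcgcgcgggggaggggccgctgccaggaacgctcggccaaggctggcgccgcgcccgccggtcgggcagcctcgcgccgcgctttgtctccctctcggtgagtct

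The C/EBP match began 182 bases before the start of Saa1, 183 bases before that of Saa2 and 216 bases before that of Lcn2. The STAT match of Socs3 began 154 bases before its start. These starts are those of RefSeq and can differ from the ends of the GENCODE gene spans. By the GENCODE spans, the windows of Lcn2 (gene to 32388252) and Socs3 (gene to 117970047) lie inside the gene. That of Saa2 (gene from 46751790) reaches into it. Of the 10 genes, 9 had a promoter in the table. Over the window from 250 bases before to 50 bases after the start, searched on both strands, the STAT motif was found in 1 of the 9, against 8.30% of all 32851 promoters. The C/EBP motif was found in 4 of the 9 (Saa1, Saa2, Lcn2 and Orm2), against 10.8% of all promoters. The promoters of Saa1 and Saa2 are near copies with the same match, so the 4 are not independent. An NF-kB motif, GGG and TTCC with any 3 bases between them, was in 0 of the 9 and in 5.56% of all promoters. A match is only a run of letters and does not show binding.

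Compared per kilobase of transcript, on which scale levels of different genes can be set side by side, Hp was by far the most abundant. Hp encodes haptoglobin, which binds free haemoglobin, and was at 3835 ± 584 CPM per kb in WT mice (SD, n = 4) and 3627 ± 731 CPM per kb in S155A mice (SD, n = 4). In WT mice it was followed by Crp (144 ± 7.52 CPM per kb), Saa1 (136 ± 166) and Lcn2 (59.4 ± 74.2). Then came Saa2 (47.6 ± 46.1 CPM per kb), Orm2 (36.9 ± 34.2) and Stat3 (26.2 ± 7.12), with Il6ra (16.5 ± 5.93), Il6st (12.4 ± 2.89) and Socs3 (4.30 ± 1.60) at the end. Genes next to each other in this order overlapped within 1 SD, except Hp with Crp and Il6st with Socs3. In S155A mice Saa1 was at 129 ± 112 CPM per kb and Crp at 141 ± 25.9 CPM per kb. The coding transcript with the longest complete coding sequence was used for the length.

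With all mice compared, no gene of the group passed the test between the genotypes. In edgeR's quasi-likelihood test 0 of the 10 were at an adjusted p under 0.05, where 0 of the 14629 genes tested were (0%), and the smallest adjusted p of any gene was 0.758. At an unadjusted p under 0.05 there were 0 of the 10 and 497 of all genes (3.40%). WT and S155A mice overlapped for each of the 10, while 337 of all genes (2.30%) had groups that did not overlap. DESeq2 called 6 genes and limma-voom 0 genes, and neither called any of the 10. The median log2 fold change of the 10 was -0.082, with 2 higher and 8 lower in S155A mice, beside a median of -0.0050 over all genes tested. Without WT replicate 1 the median of the 10 was 0.48.

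**Figure D1:**
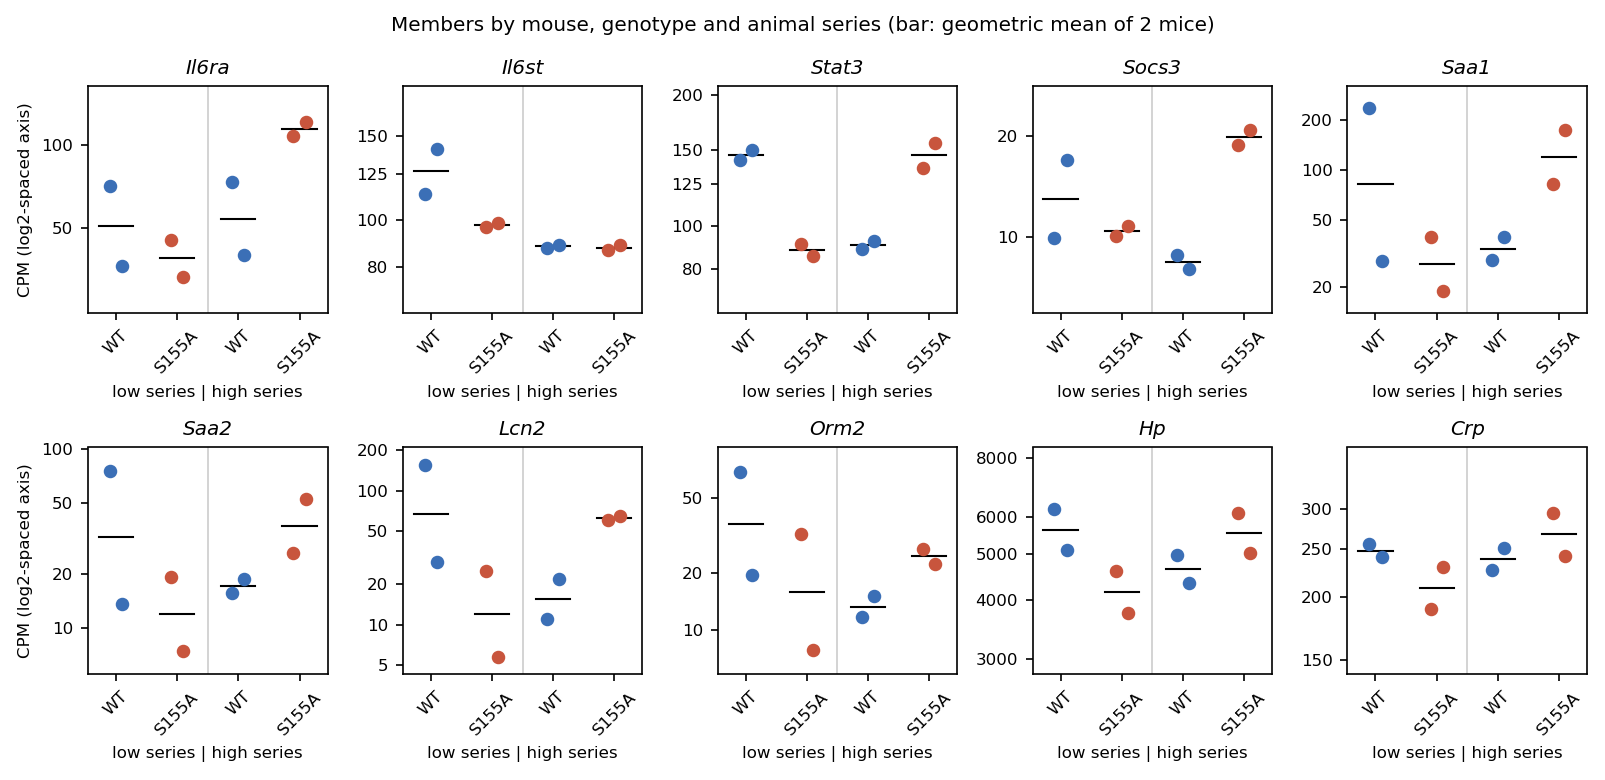
Expression of each of the 10 genes in every mouse, in CPM on log2-spaced axes that start at different values, with 2 WT (blue) and 2 S155A (red) mice in each animal series and a bar at their geometric mean. For Stat3 the S155A mice lie below the WT mice in the low series and above them in the high series, and Saa1, Saa2, Lcn2 and Orm2 have their highest value in a WT mouse of the low series.

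The gene of the ligand itself could not be compared. Il6 had 0 to 3 counts per library, the related cytokine genes Il11, Lif and Osm had 0 to 4, 0 to 7 and 0 to 9, and none of the 4 passed the filter on low counts. At this depth a difference in the liver's own Il6 RNA was not detectable.

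Il6ra (ENSMUSG00000027947), the IL6-binding receptor chain, lies on chromosome 3 from 89864059 to 89913196 on the reverse strand. Its levels were 71.3, 73.6, 40.0 and 36.4 CPM in WT replicates 1 to 4 and 45.5, 108, 121 and 33.4 CPM in S155A replicates 1 to 4. Both S155A mice of the high series were above every other mouse, and the S155A mice of the low series lay among or below the WT mice. The group means were 55.3 ± 19.8 CPM in WT and 77.0 ± 44.0 CPM in S155A mice (SD, n = 4 each), a log2 fold change of 0.48 with a standard error of 0.41 (adjusted p = 0.993 with edgeR). Within the low series, mean log2 CPM of S155A minus that of WT was -0.39 (0.097 without WT replicate 1), and within the high series it was 1.08. The gene Gm42809 is annotated within Il6ra on the opposite strand, and the strand setting of the counting is not given in the sources used here.

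Il6st (ENSMUSG00000021756), which encodes gp130, lies on chromosome 13 from 112464070 to 112510086 on the forward strand. WT replicates 1 to 4 had 114, 87.8, 88.8 and 141 CPM, and S155A replicates 1 to 4 had 96.9, 86.7, 88.9 and 98.6 CPM. The 4 mice of the high series were within a narrow range, while both WT mice of the low series were higher than all others. Over all mice the log2 fold change was -0.22 with a standard error of 0.15 (adjusted p = 0.993 with edgeR). Within the low series the difference was -0.37 and within the high series -0.0084, the smallest of the 10 genes there.

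No gene of the wider receptor, ligand and kinase lists passed the test. Of 9 tested genes of the IL6 cytokine family, Il6ra and Il6st among them, 7 were higher and 2 lower in S155A mice, with a median log2 fold change of 0.098 and none at an unadjusted p under 0.05. Of 7 JAK and STAT genes, Stat3 among them, 0 were higher and 7 lower, with a median of -0.084. The lowest p among them was that of Jak2, named after its values were seen, a kinase bound to several cytokine receptors, at 10.5 ± 0.790 CPM in WT and 8.77 ± 0.693 CPM in S155A mice (unadjusted p = 0.0504, adjusted p = 0.993 with edgeR).

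Stat3 (ENSMUSG00000004040), the transcription factor of the pathway, lies on chromosome 11 from 100885098 to 100939540 on the reverse strand. Its levels were 142, 88.7, 92.7 and 150 CPM in WT replicates 1 to 4 and 91.1, 136, 156 and 85.4 CPM in S155A replicates 1 to 4. In the low series both WT mice were above both S155A mice, and in the high series both S155A mice were above both WT mice. Pooled over the series, WT mice had 118 ± 32.2 CPM and S155A mice 117 ± 34.2 CPM (SD, n = 4 each), and a log2 fold change of -0.017 with a standard error of 0.24 (unadjusted p = 0.944 with edgeR). For the low series mean log2 CPM of S155A minus WT was -0.73, and for the high series it was 0.68. Leaving out any 1 mouse kept the former between -0.77 and -0.68 and the latter between 0.58 and 0.78. Stat5a overlaps Stat3 on the opposite strand, and its own log2 fold change was -0.084.

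Socs3 (ENSMUSG00000053113), the feedback inhibitor whose promoter holds the STAT match, lies on chromosome 11 from 117966079 to 117970047 on the reverse strand. WT replicates 1 to 4 had 9.99, 8.85, 8.06 and 17.0 CPM, and S155A replicates 1 to 4 had 10.1, 18.8, 20.9 and 10.8 CPM. The highest values were those of both S155A mice of the high series, and WT replicate 4 came next. The means were 11.0 ± 4.07 CPM in WT and 15.1 ± 5.50 CPM in S155A mice (SD, n = 4 each), a log2 fold change of 0.46 with a standard error of 0.30 (adjusted p = 0.993 with edgeR). This was the lowest p of the 10 genes (unadjusted p = 0.150 with edgeR). An exact permutation test on log2 CPM, two-sided, gave p = 0.171, where the smallest p that 4 mice against 4 allow is 0.0286. The difference was 1.23 in the high series and -0.32 in the low series, and the latter was 0.063 without WT replicate 4. Among 10 inhibitors of cytokine signalling, the SOCS, PIAS and phosphatase genes with Socs3 among them, 7 were higher and 3 lower in S155A mice (median log2 fold change 0.092), with 0 at an unadjusted p under 0.05.

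Saa1 varied over a wide range among the mice. Its levels were 235, 29.0, 39.8 and 28.8 CPM in WT replicates 1 to 4 and 39.9, 82.2, 173 and 18.9 CPM in S155A replicates 1 to 4. WT replicate 1 of the low series and both S155A mice of the high series were high, and the other 5 mice were at 39.9 CPM or below. Group means were 83.1 ± 101 CPM in WT and 78.5 ± 68.3 CPM in S155A mice (SD, n = 4 each). The edgeR log2 fold change was -0.084 with a standard error of 0.80 (adjusted p = 0.999), while the difference in mean log2 CPM was 0.12, of the opposite sign. Without WT replicate 1 the log2 fold change was 1.28. By series, the difference was -1.58 in the low series, which was -0.065 without WT replicate 1, and 1.81 in the high series.

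Saa2 followed Saa1 in every mouse by rank. WT replicates 1 to 4 had 76.0, 15.7, 18.9 and 13.6 CPM, and S155A replicates 1 to 4 had 19.3, 26.2, 52.6 and 7.40 CPM. Again WT replicate 1 and S155A replicate 3 were the highest and S155A replicate 4 the lowest. The log2 fold change was -0.24 with a standard error of 0.65 (adjusted p = 0.996 with edgeR), with differences of -1.42 in the low series (-0.18 without WT replicate 1) and 1.11 in the high series. For the sum of Saa1 and Saa2, which does not depend on how shared reads were divided, the log2 fold change was -0.12 with a standard error of 0.76.

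Lcn2 (ENSMUSG00000026822), on chromosome 2 from 32384633 to 32388252 on the reverse strand, encodes lipocalin 2, which binds bacterial siderophores. It had the widest range of the group, with a ratio of 27.0 between the highest and the lowest mouse. Its levels were 156, 11.0, 21.8 and 29.2 CPM in WT replicates 1 to 4 and 25.3, 60.3, 65.3 and 5.75 CPM in S155A replicates 1 to 4. As for Stat3, the genotypes were separate within each series and in opposite order. The log2 fold change was -0.48 with a standard error of 0.85 (adjusted p = 0.996 with edgeR), and it was 0.92 without WT replicate 1. The difference was -2.48 in the low series (-1.27 without WT replicate 1) and 2.02 in the high series. Lcn2 is also made by neutrophils, so neutrophil markers are given beside it. The summed level of 10 of them was 2.82 CPM in WT replicate 1, where Lcn2 was highest, and 13.2 and 9.69 CPM in S155A replicates 2 and 3. Over all mice it was 2.82 to 7.51 CPM in WT and 2.45 to 13.2 CPM in S155A mice, with 7 of the 10 genes passing the filter and none at 0 in every library. Most of the sum was S100a8 and S100a9. Of the other markers, all at 1.82 CPM or below, Retnlg was highest in S155A replicate 2 and Ly6g and Cxcr2 in S155A replicate 3. Elane was highest in WT replicate 1, Mpo in S155A replicate 1, and Ngp, Ltf and Camp in WT replicate 4.

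Orm2 (ENSMUSG00000061540) lies on chromosome 4 from 63362449 to 63365878 on the forward strand. WT replicates 1 to 4 had 68.1, 11.7, 15.1 and 19.5 CPM, and S155A replicates 1 to 4 had 32.2, 26.8, 22.4 and 7.87 CPM. WT replicate 1 stood above all others, and both S155A mice of the high series were above both WT mice there. The log2 fold change was -0.36 with a standard error of 0.57 (adjusted p = 0.993 with edgeR), and 0.53 without WT replicate 1. The differences were -1.19 in the low series, which was -0.29 without WT replicate 1 and -0.18 without S155A replicate 4, and 0.88 in the high series. The near copies Orm1, at 317 to 789 CPM, and Orm3, at 1.25 to 17.6 CPM, were lowest in S155A replicate 4 as well. The sum of the 3 copies had a log2 fold change of -0.16 with a standard error of 0.25.

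Hp (ENSMUSG00000031722), on chromosome 8 from 109575128 to 109579172 on the reverse strand, varied much less. Its levels were 6230, 4967, 4345 and 5089 CPM in WT replicates 1 to 4 and 4615, 6120, 5025 and 3754 CPM in S155A replicates 1 to 4. In the low series both S155A mice were below both WT mice, and in the high series both were above. The log2 fold change was -0.080 with a standard error of 0.17 (adjusted p = 0.996 with edgeR). The low series differed by -0.44 and the high series by 0.26, and the latter lay between 0.11 and 0.40 when 1 mouse was left out.

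Crp (ENSMUSG00000037942), on chromosome 1 from 172698055 to 172833031 on the forward strand, encodes C-reactive protein, which responds strongly in humans but only weakly in mice. WT replicates 1 to 4 had 256, 227, 251 and 241 CPM, and S155A replicates 1 to 4 had 189, 296, 242 and 230 CPM. It was the steadiest gene of the group, with a ratio of 1.56 between the highest and the lowest mouse. The log2 fold change was -0.026 with a standard error of 0.13 (adjusted p = 0.998 with edgeR), with differences of -0.25 and 0.16 in the low and the high series. The gene Gm38051 overlaps Crp on the same strand.

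**Figure D2:**
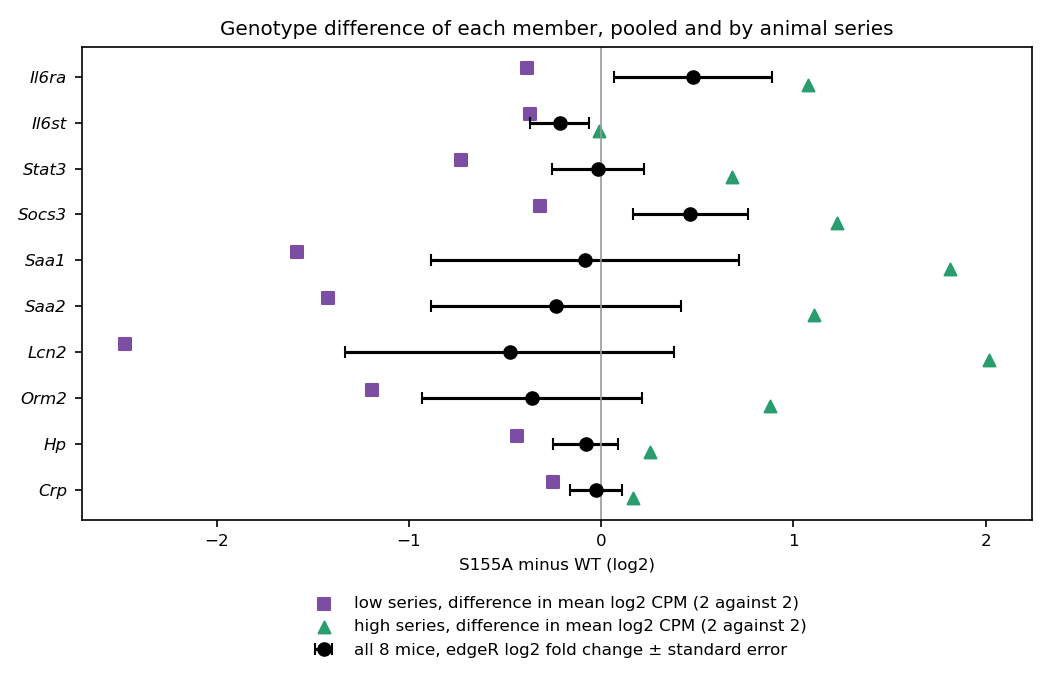
S155A minus WT on the log2 scale for each gene, with the edgeR log2 fold change over all 8 mice (black, bars give the standard error) and the difference in mean log2 CPM within each series (squares for the low, triangles for the high series), 2 mice against 2. All squares lie below 0, and all triangles except that of Il6st lie above 0.

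The genotype difference thus had opposite signs in the 2 animal series for most of the group. S155A mice of the low series were lower in 10 of 10 genes, and those of the high series were higher in 9 of 10. Both held together for 9 of the 10 genes, whereas 27.2% of all genes tested were lower in the low and higher in the high series. When any 1 mouse was left out, 8 to 10 of the 10 had this pattern. Without overlap of the mice, S155A was lower in the low series for Il6st, Stat3, Lcn2, Hp and Crp (5 of 10, against 16.3% of all genes). In the high series it was higher without overlap for 8 of 10 (22.7% of all genes), all but Il6st and Crp. Stat3, Lcn2 and Hp were separate in both series, 3 of 10 against 4.76% of all genes. Each series has 2 mice per genotype, and the members share the same mice, so these counts are not independent observations. The group was also chosen with earlier results of these data known. In the high series the S155A mice have animal numbers 830 and 831 and the WT mice 856 and 869. Whether mice with neighbouring numbers share an origin is not given in the sources used here, so origin and genotype cannot be told apart there. Other measures of the libraries were separate in the same order. The summed level of 6 hepatocyte markers in the low series was 110281 and 102316 CPM in WT and 98665 and 90833 CPM in S155A mice. In the high series it was 102259 and 93539 CPM in WT and 124307 and 131058 CPM in S155A mice. Most of this sum was Alb, the albumin gene, with 81341 CPM in WT replicate 1. In the low series the genotypes overlapped for Ttr, Apoa1, Hnf4a, Cyp2e1 and Cps1. In the high series Hnf4a, Cyp2e1 and Cps1 were higher in S155A mice and Apoa1 overlapped. Ttr was lower there in S155A mice (4796 and 4418 CPM) than in WT mice (5161 and 5293 CPM). The share of counts in the 50 most abundant genes was 35.5% and 34.7% in WT and 33.8% and 33.7% in S155A mice of the low series, beside 33.7% in both WT mice and 35.6% and 36.0% in the S155A mice of the high series. Their part in the result was not tested.

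**Figure D3:**
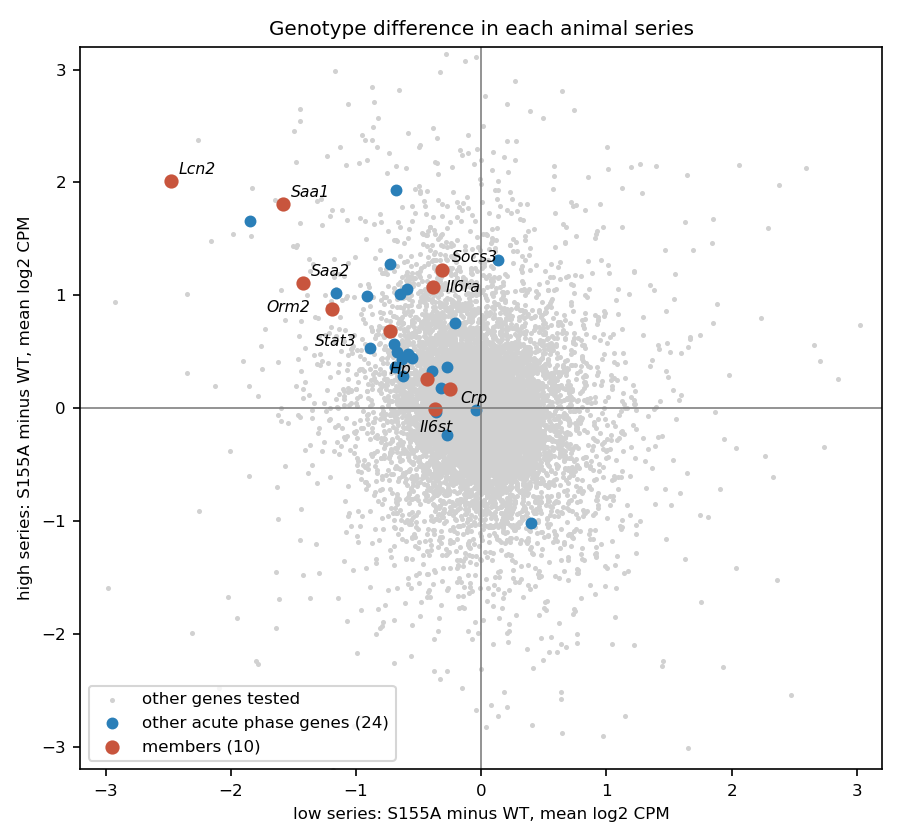
S155A minus WT in mean log2 CPM within the low series (horizontal) and within the high series (vertical) for the genes tested (grey), 24 other acute phase genes (blue) and the 10 genes of the group (red, named), with 38 grey genes outside the axes. Of the red genes 9 and of the blue genes 19 are in the upper left quadrant.

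Whether the genotype difference differed between the series was tested as an interaction, in which a positive value means a higher difference in the high series. No gene passed, with 0 of 10 and 0 of all genes (0%) at an adjusted p under 0.05 in edgeR. At an unadjusted p under 0.05 there were 7 of the 10, beside 1622 of all genes (11.1%). Stat3 had an interaction of 1.41 (standard error 0.17, unadjusted p = 2.61e-05, adjusted p = 0.0851 with edgeR), and it ranked 3 by p among all genes tested. Socs3 was next with 1.60 (standard error 0.33, adjusted p = 0.232). Lcn2 had 4.51 (standard error 1.16, adjusted p = 0.282) and Saa1 4.06 (standard error 1.15, adjusted p = 0.297). The other genes at an unadjusted p under 0.05 were Il6ra (1.46), Saa2 (2.93) and Hp (0.69). Without WT replicate 1 of the low series, Il6ra was at 0.91, Saa2 at 1.22 and Hp at 0.55. Lcn2 was then at 2.85 and Saa1 at 1.87, while Stat3 was at 1.45 and Socs3 at 1.93. With any 1 mouse left out, the interaction lay between 0.91 and 1.97 for Il6ra, 1.22 and 3.79 for Saa2, and 0.55 and 0.85 for Hp. With all mice, Saa2 was above that threshold with limma-voom (unadjusted p = 0.0523) and with edgeR's robust fit (unadjusted p = 0.0726). Values for the remaining genes were 2.003 for Orm2 (0.84 without WT replicate 1), 0.41 for Crp and 0.37 for Il6st. The call depended on the tool. DESeq2 called 285 genes, of which 2 were in the group, Stat3 (adjusted p = 4.24e-08) and Socs3 (adjusted p = 0.00309), and limma-voom called 1 gene and none of the group. When the high series was compared with the low series at equal genotype, 0 of 10 genes were at an adjusted p under 0.05 (0% of all genes). At an unadjusted p under 0.05 were Il6ra and Il6st of the group, beside 12.8% of all genes. Il6ra was higher in the high series by 0.81 (unadjusted p = 0.0461, adjusted p = 0.380 with edgeR). Il6st was lower there by a log2 change of -0.34 (unadjusted p = 0.0130, adjusted p = 0.273 with edgeR).

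The other acute phase genes, 24 secreted proteins and IL6-responsive genes outside the group, were mostly lower in S155A mice of 1 series and higher in those of the other. S155A mice were lower in the low series for 22 of 24 (median difference -0.61) and higher in the high series for 20 of 24 (median 0.49, beside medians of -0.0041 and -0.0092 over all genes tested), and 19 of 24 had both (79.2%, against 27.2% of all genes). Pooled over the series, 9 were higher and 15 lower, with a median log2 fold change of -0.083. Without WT replicate 1 there were 19 of 24 higher and the median was 0.15, and without S155A replicate 4 there were 13 higher with a median of 0.024. At an unadjusted p under 0.05 the interaction was positive for 18 of 24 (75.0%, against 6.02% of all genes), and none passed the adjusted threshold in edgeR. The 24 genes are measured in the same mice, so these counts are not independent observations. The list was also chosen with earlier results of these data known, so its shares beside those of all genes are descriptions only. The following genes were chosen after their values were seen. The 3 fibrinogen chains, which form the clot, had interactions of 1.17 (Fga), 1.08 (Fgb) and 1.06 (Fgg). Serpina3n, a protease inhibitor, had 2.37 (standard error 0.55), and Saa4, the constitutive serum amyloid A, had 2.09 (standard error 0.41). Hamp, which encodes the iron hormone hepcidin, went the other way, with differences of 0.40 in the low and -1.02 in the high series.

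By genotype alone, 1 of the 24 was at an unadjusted p under 0.05, beside 3.40% of all genes tested. This was Mt1, a metallothionein that binds zinc, at 329 ± 59.0 CPM in WT and 575 ± 237 CPM in S155A mice (SD, n = 4 each), and a log2 fold change of 0.81 with a standard error of 0.27 (adjusted p = 0.993 with edgeR). Its difference was 0.13 in the low and 1.32 in the high series. Of 9 transcription factors and immediate response genes of the acute phase, 7 were higher and 2 lower in S155A mice (median log2 fold change 0.25). Among them Cebpd, a C/EBP factor induced by IL6, had a log2 fold change of 0.68 with a standard error of 0.30 (unadjusted p = 0.0486, adjusted p = 0.993 with edgeR). Its means were 5.53 ± 1.11 CPM in WT and 8.85 ± 3.84 CPM in S155A mice (SD, n = 4 each).

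**Figure D4:**
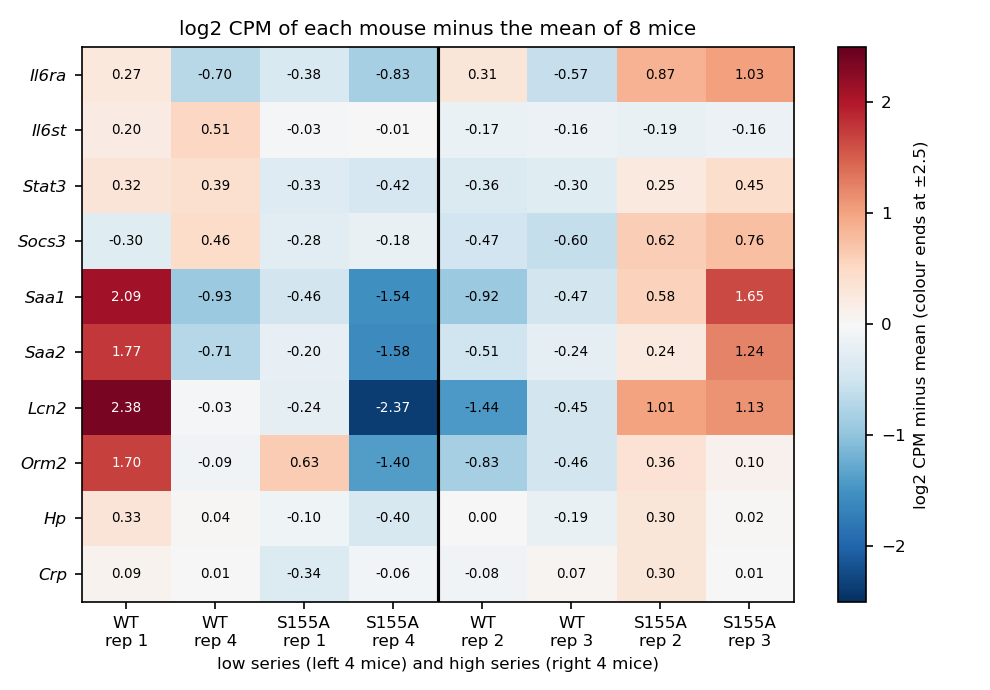
log2 CPM of each gene in each mouse minus the mean of the 8 mice, with the low series on the left and the high series on the right; colours end at 2.5 log2 units above or below the mean. WT replicate 1 is the highest mouse for 5 of the 10 genes and S155A replicate 4 the lowest for 7.

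Single mice set much of the spread. WT replicate 1 was above the mean in 9 of the 10 genes and was the highest mouse for Saa1, Saa2, Lcn2, Orm2 and Hp. S155A replicates 2 and 3 were each above the mean in 9 of 10 genes, and S155A replicate 3 was the highest for Il6ra, Stat3 and Socs3. S155A replicate 4 was above the mean in 0 of 10 and the lowest for 7. The SD of log2 CPM within genotypes was 1.62 for Lcn2 and 1.41 for Saa1, above those of 99.3% and 98.8% of the genes tested. At the other end, Hp (0.26), Il6st (0.24) and Crp (0.19) were below the median of all genes, 0.27. Other cell markers also set single mice apart. S155A replicate 3 had 2061 CPM of 10 lymphocyte markers, where the other mice had 19.4 to 45.4 CPM. Most of that sum was the antibody genes Ighm (1164 CPM) and Igkc (806 CPM). The T cell genes Cd3e and Cd3d were at 1.40 and 0.871 CPM in this mouse. WT replicate 2 had 38.9 CPM of 7 pancreatic acinar markers, where the others had 4.18 to 6.43 CPM. The part of these markers in the results was not tested. Without S155A replicate 3 the interaction of the 10 genes stayed positive, and so it did without any other single mouse.

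The 4 highest correlations across the 8 mice were among Saa1, Saa2, Lcn2 and Orm2. Of the 45 pairs of genes, 41 had a positive Pearson r of log2 CPM, with a median of 0.53. Saa1 and Saa2 had r = 0.98 (exact permutation p adjusted over 45 pairs 0.00112) and Spearman's rho of 1.0 (adjusted p = 0.00223, exact permutation), and r was 0.92 without the 2 mice farthest from the median of Saa1. Reads of that pair can be shared. For Saa2 and Lcn2 r was 0.93 (adjusted p = 0.0227, exact permutation) with rho of 0.86 (adjusted p = 0.0865), and r was 0.86 without the 2 farthest mice. For Saa1 and Lcn2 r was 0.92 (adjusted p = 0.0128, exact permutation) with rho of 0.86 (adjusted p = 0.0865), and 0.89 without 2 mice. Lcn2 and Orm2 had r = 0.91 (adjusted p = 0.0301, exact permutation) with rho of 0.83 (adjusted p = 0.0865), and 0.68 without 2 mice. No other pair was under 0.05 after adjustment. Stat3 and Socs3, factor and target, had r = 0.78 (adjusted p = 0.166, exact permutation) and rho of 0.52 (adjusted p = 0.340), with 0.58 without 2 mice. Il6ra and Il6st had the lowest r, -0.47 (adjusted p = 0.446, exact permutation), with rho of -0.60 (adjusted p = 0.340) and -0.23 without 2 mice. The median r was 0.54 after removal of the genotype means and 0.39 with scaling by library size alone.

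**Figure D5:**
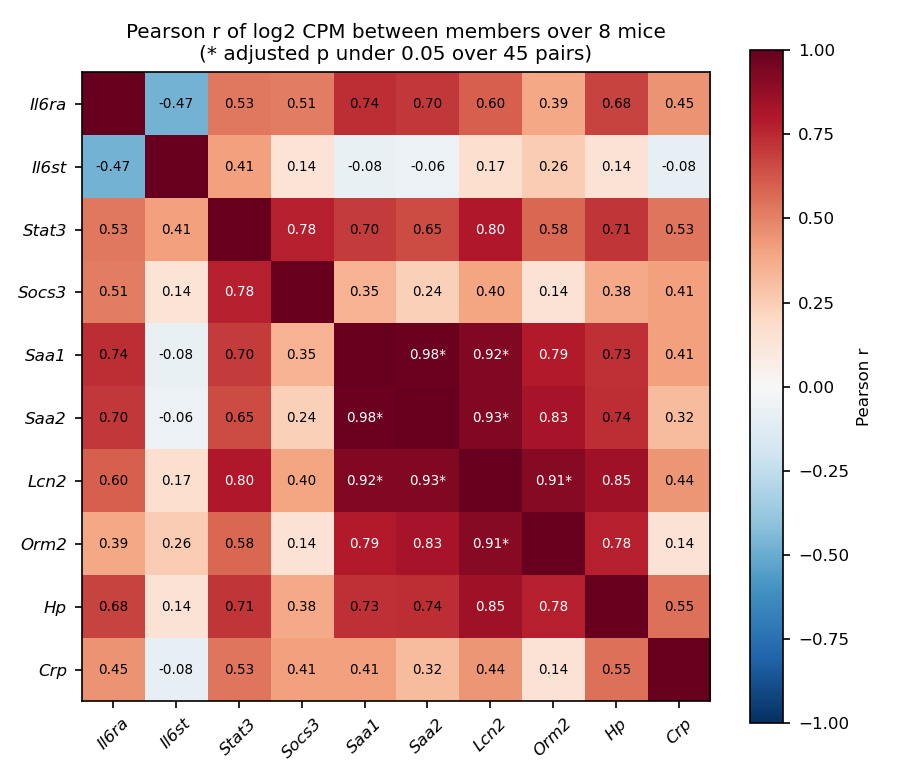
Pearson r of log2 CPM over the 8 mice for each pair of the 10 genes, with an asterisk where the exact permutation p adjusted over 45 pairs was under 0.05. The block of high values joins Saa1, Saa2, Lcn2 and Orm2, and the row of Il6st holds the negative values.

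Saa1 and Socs3 were each compared with all genes at a mean of at least 1 CPM, 12107 in all. By Pearson r over the 8 mice, given as a description, the genes most like Saa1 were Saa2 (0.98), Il1r1 (0.96), Gm5549 (0.96), Extl1 (0.95) and Ncoa4 (0.95). Il1r1, the gene of the IL1 receptor, had 37.1 CPM in WT replicate 1 and 11.9 to 28.9 CPM in the other mice. Lcn2 ranked 19 in this list. The genes most like Socs3 were Cd14 (0.95), Ms4a6d (0.95), Csf2rb (0.94), Gm20425 (0.94) and Btk (0.94). Cd14, Ms4a6d, Csf2rb and Btk are expressed in myeloid cells, and Stat3 ranked 233. The summed level of the 9 Kupffer cell markers was 577 and 421 CPM in S155A replicates 2 and 3 and 511 CPM in WT replicate 4. These 3 mice had the highest levels both of the markers and of Socs3. S155A replicate 1 came next for the markers with 400 CPM, but its Socs3 was at 10.1 CPM, beside 20.9 CPM in S155A replicate 3. The part of these cells in the Socs3 values was not tested.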

How the data were processed

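RNA from liver tissue of 8 mice was made into stranded mRNA libraries and read as pairs. The authors deposited expected counts per gene, estimated with salmon and scaled for transcript length, without normalization for library size. The submitters' processing notes name bcl2fastq, STAR, SAMtools, MultiQC, DESeq2 and GRCm38, and the annotation release and use of strand are not given in the sources used here. Columns were matched to mice by the animal number in the labels. Expected counts were rounded, filtered with filterByExpr, scaled by TMM and tested on all 8 mice with edgeR 4.0.16 under R 4.3.3 (quasi-likelihood test), with no block and Benjamini-Hochberg adjustment over all genes tested. The interaction of genotype and animal series was fitted in the same way. Standard errors were derived from the test, as the size of the log2 value divided by the square root of the F statistic. log2 CPM used a prior count of 2. DESeq2 1.42.0, limma-voom (limma 3.58.1), other scalings and filters, blocks and leaving out each mouse were alternatives. Nothing in the labels says more than that the 8 are biological replicates. The members and all lists were chosen with earlier results of these data known. Of genes outside the group, those named include the genes with the smallest p in each list at an unadjusted p under 0.05. Others were the closest correlates of Saa1 and Socs3, near copies, ligands, overlapping genes, cell markers, Plin5 and genes said to be chosen later. The tests were checked on simulated counts. No pair of libraries was a copy, since chi-square per gene was at least 40.2. The lowest value was that of S155A replicates 2 and 3, with animal numbers 830 and 831. For WT replicate 4 and S155A replicate 4, numbers 89 and 90, it was 55.2. Replicate numbers did not pair the mice.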

Additional observations from a re-analysis of the deposited data

Results flagged for a closer look

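In WT mice 1 value stood far from the other 3 by Dixon's test on CPM for 4 of the 10 genes, and each time it was that of WT replicate 1. It had 235 CPM of Saa1, 76.0 CPM of Saa2, 156 CPM of Lcn2 and 68.1 CPM of Orm2. For normally distributed values, chance alone sets apart about 1 of the 20 groups of 4 that were searched. The test was run on CPM and not on log2 CPM, where high values stand out less. The 4 genes found therefore cannot be set against that 1. They are also measured in the same mouse and vary together, so the values are not independent. WT replicate 1 had the lowest summed level of neutrophil markers among WT mice (2.82 CPM), of lymphocyte markers (19.4 CPM) and of red cell genes (411 CPM).

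For 3 genes the 2 WT and 2 S155A mice of each animal series did not overlap and the genotypes were in opposite order. The interaction was 1.41 for Stat3, 4.51 for Lcn2 and 0.69 for Hp on the log2 scale, and none passed the adjusted threshold in edgeR (adjusted p = 0.0851, 0.282 and 0.366). Over all genes tested, 4.76% were lower in the low and higher in the high series without overlap.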

How the results depend on the processing

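The 0 calls among the 10 genes by genotype held in every alternative run, and the fold changes of Il6ra, Il6st and Socs3 kept their sign in all of them. Leaving out 1 mouse at a time, the fold change on the log2 scale ranged from 0.17 to 0.73 for Il6ra, -0.30 to -0.061 for Il6st, 0.27 to 0.75 for Socs3, -0.19 to 0.12 for Stat3, -0.83 to 1.28 for Saa1, -0.82 to 0.72 for Saa2, -0.84 to 0.92 for Lcn2, -0.62 to 0.53 for Orm2, -0.20 to 0.027 for Hp and -0.14 to 0.071 for Crp. The change of Saa1 was 0.10 with limma-voom and 0.19 with a replicate block. With that replicate block 0 genes were called, and it changed no call. The correlations of same-numbered mice were 0.056, 0.17, -0.11 and 0.13, so the numbers were not read as pairs.

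With DESeq2 size factors or library size alone in edgeR, calls stayed at 0 for the genotype and for the interaction. For the genotype DESeq2 called 6 genes. For the interaction DESeq2 called 285 genes with 2 of the group, limma-voom 1 gene, and edgeR without a filter on low counts 765 genes with 7 of the group (Il6ra, Stat3, Socs3, Saa1, Saa2, Lcn2 and Orm2). In that last fit the spread of single genes was shrunk fully to the trend, with infinite prior degrees of freedom, where the filtered fit had 4.55. Leaving out 1 mouse gave between 0 and 40 genes and between 0 and 2 of the group. The 40 were without WT replicate 4, where Stat3 and Saa1 were called (adjusted p = 0.0480 each with edgeR), 5 were without S155A replicate 2 and 1 without WT replicate 3. The interaction of each of the 10 genes stayed above 0 in every alternative, from 1.26 to 1.50 for Stat3 and from 1.87 to 4.89 for Saa1. With 2 mice per genotype and series, an exact permutation test within 1 series cannot pass the 0.05 level, and no other test was run within a series. A difference in genes such as Lcn2, which varied 27.0-fold among the mice, is limited by the spread between mice, with at least 291 counts of Lcn2 behind each value.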

Other observations

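Negative acute phase genes, whose levels drop in inflammation, showed no genotype difference that passed the test. Of 7 tested, 5 were higher and 2 lower in S155A mice, with a median log2 fold change of 0.099 and none at an unadjusted p under 0.05. Alb, which encodes albumin, differed by -0.20 in the low and 0.42 in the high series (interaction 0.61, standard error 0.22, adjusted p = 0.365 with edgeR), the same order as most acute phase genes, and was chosen after its values were seen. Of the 7, 3 were lower in the low and higher in the high series, against 27.2% of all genes tested. Ttr (0.030 and -0.18) and Serpina6 (0.45 and -0.11), also chosen after their values were seen, had the opposite order.

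Of 8 genes of IL1, TNF and NF-kB signalling, 5 were higher and 3 lower in S155A mice, with a median log2 fold change of 0.036 and none at an unadjusted p under 0.05. For the interaction, 2 of the 8 were at an unadjusted p under 0.05, against 11.1% of all genes tested. These were Il1r1 with 1.85 (standard error 0.48, adjusted p = 0.282 with edgeR) and the TNF receptor gene Tnfrsf1a with 0.56 (standard error 0.17, adjusted p = 0.313). Tnfrsf1a was chosen after its values were seen. Bcl3, an NF-kB cofactor and STAT3 target chosen after its values were seen, had an interaction of -0.82 (standard error 0.22, adjusted p = 0.287), with differences of 0.64 in the low and -0.17 in the high series.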
